A study of Mus musculus with 24 samples.

Results

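Osteoclasts and multinucleated giant cells form when macrophage-lineage cells fuse, and a small set of genes is known for this process and for the degradation of bone. Of these, 10 genes were followed here across 24 RNA-seq libraries of mouse bone marrow–derived macrophages (BMDM), out of 56884 genes in the count table. They are *Tnfrsf11a*, *Oscar*, *Nfatc1*, *Dcstamp*, *Ocstamp*, *Cdh1*, *Atp6v0d2*, *Ctsk*, *Acp5* and *Mmp9*. They were selected by symbol on their known roles, with their levels in the 6 conditions of these same libraries already known. The adjusted *P* values below therefore compare the groups of each gene with the spread between mice, and give no support to the choice of the genes as a set. Of the 10 genes, 9 had enough reads to be tested, and *Oscar* did not.

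In the osteoclast lineage, the receptor RANK binds its ligand RANKL and acts through TRAF6, NF-κB and AP-1 to raise NFATc1, the main transcription factor of the lineage. NFATc1 in turn acts on genes of cell fusion, such as *Dcstamp* and *Atp6v0d2*, and of bone resorption, such as *Ctsk* and *Acp5*. In macrophages given IL-4, fusion into giant cells is known to proceed through STAT6 and to use DC-STAMP and E-cadherin.

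The macrophages came from 4 wild-type C57BL/6J female mice, 9 weeks old and numbered 1, 2, 4 and 5, and had been grown for 6 days in M-CSF, the growth factor of macrophages. Every group held 1 library from each mouse. Naive cells were left without cytokine, and the other 5 groups received IL-4 and IL-13 at 20 ng/ml each for 24 hours. Of these, the IL-4/IL-13 group had no inhibitor. The others were pretreated for 1 hour with an inhibitor that then stayed in the medium. Tunicamycin (5 µg/ml) blocks N-glycosylation in the endoplasmic reticulum, Sal003 (10 µM) blocks the dephosphorylation of eIF2α, and oligomycin (1 µM) blocks the mitochondrial ATP synthase. The study asked how such stress alters the response to these cytokines. There were 2 oligomycin groups, 1 of which also had ISRIB (1 µM), a compound that counteracts the effect of eIF2α phosphorylation. The labels disagree on which group it was. Titles and treatment labels give ISRIB to the libraries named Oligo, whereas the library and replicate names give it to those named Oli_ISR. The groups are therefore called Oligo and Oli_ISR after the library names, and this was not settled from measured values.

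The 250 bases upstream of the annotated start of each gene's canonical transcript were read from GRCm39 to see which short factor motifs they hold. The letters searched, on both strands, were TTC and GAA with 4 bases of any kind between them for STAT6. The others were TTCNNNGAA for STAT factors, TGANTCA for AP-1, TGATGNAA for C/EBP-ATF pairs, CACGTG for MITF and TFE factors, and GAGGAAG for PU.1. *Nfatc1* was not searched. Shown are *Dcstamp* and *Ocstamp*, which were lower with each inhibitor, *Atp6v0d2*, which was lower with tunicamycin and not with the other 3, and *Mmp9*, which did not rise with the cytokines. The windows are chr15:39608964-39609213 on the plus strand, chr2:165242337-165242586 on the minus strand, chr4:19922615-19922864 on the minus strand and chr2:164789889-164790138 on the plus strand. They are written in the direction of the gene, 5′ to 3′, with capitals marking the motif matches.
Dcstamp: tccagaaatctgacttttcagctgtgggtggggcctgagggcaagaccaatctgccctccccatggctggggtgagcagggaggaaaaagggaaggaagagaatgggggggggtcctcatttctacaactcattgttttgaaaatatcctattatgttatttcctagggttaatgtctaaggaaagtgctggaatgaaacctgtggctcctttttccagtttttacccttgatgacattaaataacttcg
Ocstamp: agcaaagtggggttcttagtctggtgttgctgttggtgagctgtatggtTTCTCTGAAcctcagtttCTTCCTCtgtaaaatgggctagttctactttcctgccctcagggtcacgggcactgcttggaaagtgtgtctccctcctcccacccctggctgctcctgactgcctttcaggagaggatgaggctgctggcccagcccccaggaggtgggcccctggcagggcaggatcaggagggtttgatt
Atp6v0d2: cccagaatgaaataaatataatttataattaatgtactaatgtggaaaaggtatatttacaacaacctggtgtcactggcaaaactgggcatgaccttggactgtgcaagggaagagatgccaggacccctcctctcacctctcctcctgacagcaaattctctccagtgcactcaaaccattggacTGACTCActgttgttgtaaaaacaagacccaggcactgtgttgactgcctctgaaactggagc
Mmp9: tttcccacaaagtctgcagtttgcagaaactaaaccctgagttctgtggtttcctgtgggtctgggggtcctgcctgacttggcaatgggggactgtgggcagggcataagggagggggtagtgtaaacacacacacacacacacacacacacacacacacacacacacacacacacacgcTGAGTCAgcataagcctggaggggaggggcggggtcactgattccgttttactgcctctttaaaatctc
The *Ocstamp* window held a STAT match and a PU.1 match, and the windows of *Atp6v0d2* and *Mmp9* an AP-1 match each, at 63 to 57 and 69 to 63 bases before the start. The *Dcstamp* window held none of the 6 motifs. Among the 9 windows searched, PU.1 letters were in 3 (*Oscar*, *Ocstamp* and *Cdh1*), AP-1 letters in 2 and STAT letters in 1, and the STAT6, C/EBP-ATF and CACGTG letters in 0. Of 21770 promoters of protein-coding genes, 10.3% held the PU.1 letters, 6.17% AP-1, 7.7% STAT, 5.89% STAT6, 3.39% C/EBP-ATF and 6.26% CACGTG. A match describes the letters only.

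Reads counted on genes numbered 16238727 to 26725278 per library. The 8 macrophage markers examined, among them *Adgre1*, *Cd68* and *Csf1r*, exceeded the floor in every group. All 6 epithelial markers were at the floor, defined as 3 counts or fewer in every library of a group. Levels are given as CPM, the counts scaled to the normalized library size, as mean ± SD over n = 4 mice. Where genes are compared with each other, levels are given as TPM, which also allows for the summed exon length of each gene. The macrophage markers differed in level between groups. Mean *Csf1r* was 3732 CPM with IL-4/IL-13 and 821 CPM with tunicamycin, and mean *Cd68* 1230 and 481 CPM. Mean *Adgre1* was higher with tunicamycin, at 6678 CPM against 977 CPM with IL-4/IL-13. Calls needed both an adjusted *P* value below 0.05, over the 13679 genes tested, and a difference of 2.5-fold or more, and "rose" and "fell" are used for such calls only. The sequencing measures RNA of a whole culture, so that fewer cells expressing a gene and less RNA per cell cannot be told apart.

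The genes lie on 9 chromosomes of GRCm39. *Tnfrsf11a* (ENSMUSG00000026321) spans 105708358 to 105777170 on chromosome 1, *Oscar* (ENSMUSG00000054594) 3612812 to 3620861 on chromosome 7, and *Nfatc1* (ENSMUSG00000033016) 80649266 to 80756295 on chromosome 18. *Dcstamp* (ENSMUSG00000022303) spans 39609214 to 39624334 on chromosome 15 and *Ocstamp* (ENSMUSG00000027670) 165235680 to 165242336 on chromosome 2. *Cdh1* (ENSMUSG00000000303) lies at 107329941 to 107396880 on chromosome 8, and *Atp6v0d2* (ENSMUSG00000028238) at 19876838 to 19922614 on chromosome 4. *Ctsk* (ENSMUSG00000028111) spans 95406178 to 95416732 on chromosome 3, *Acp5* (ENSMUSG00000001348) 22038023 to 22049355 on chromosome 9, and *Mmp9* (ENSMUSG00000017737) 164780439 to 164797771 on chromosome 2. Whether the reads were counted by strand is not given in the sources used here, so reads of an antisense partner cannot be told apart from those of the gene. This touches *Dcstamp*, with 36% of its exon bases under *Gm62978* on the opposite strand, *Oscar* with 29.3%, *Atp6v0d2* with 4.91% and *Acp5* with 3.12%. The exons of the other 6 genes overlapped none.

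The receptor and the transcription factor of the pathway were already present in naive cells. *Tnfrsf11a*, which encodes RANK, had 152, 126, 163 and 168 CPM in the naive libraries of mice 1, 2, 4 and 5, and 76.2, 84.1, 83.0 and 83.8 CPM after IL-4/IL-13. The naive libraries lay above those of every other group, and Oligo, at 66.3 ± 1.73 CPM, lay below all. The level was lower with the cytokines than without by 0.90 on the log2 scale, a log2 fold change of -0.90 (standard error, SE, of 0.07; adjusted *P* = 5.2e-11 by the quasi-likelihood test of edgeR), which is 1.86-fold and under the line for a call. Tunicamycin (84.5 ± 8.69 CPM), Sal003 (93.9 ± 3.45 CPM) and Oli_ISR (97.4 ± 3.52 CPM) formed a run in which each neighbour in the order overlapped the next.

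*Nfatc1* had 104, 91.2, 108 and 108 CPM in naive cells and 67.5, 63.5, 70.0 and 72.5 CPM with the cytokines, a log2 fold change of -0.59 (SE 0.06). It was lowest with tunicamycin, at 49.6 ± 2.28 CPM, followed by Oligo at 58.0 ± 2.91 CPM, and these 2 groups overlapped neither each other nor the IL-4/IL-13 group. Neither *Tnfrsf11a* nor *Nfatc1* passed 2.5-fold in any of the 10 comparisons. *Oscar*, which encodes a collagen receptor that signals through the adaptor FcRγ, had 0 to 3 reads in each of the 24 libraries. It was not detectable above the floor in any group, and that floor allows for counting error alone, as the reads had no molecular identifiers.

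**Figure D1:**
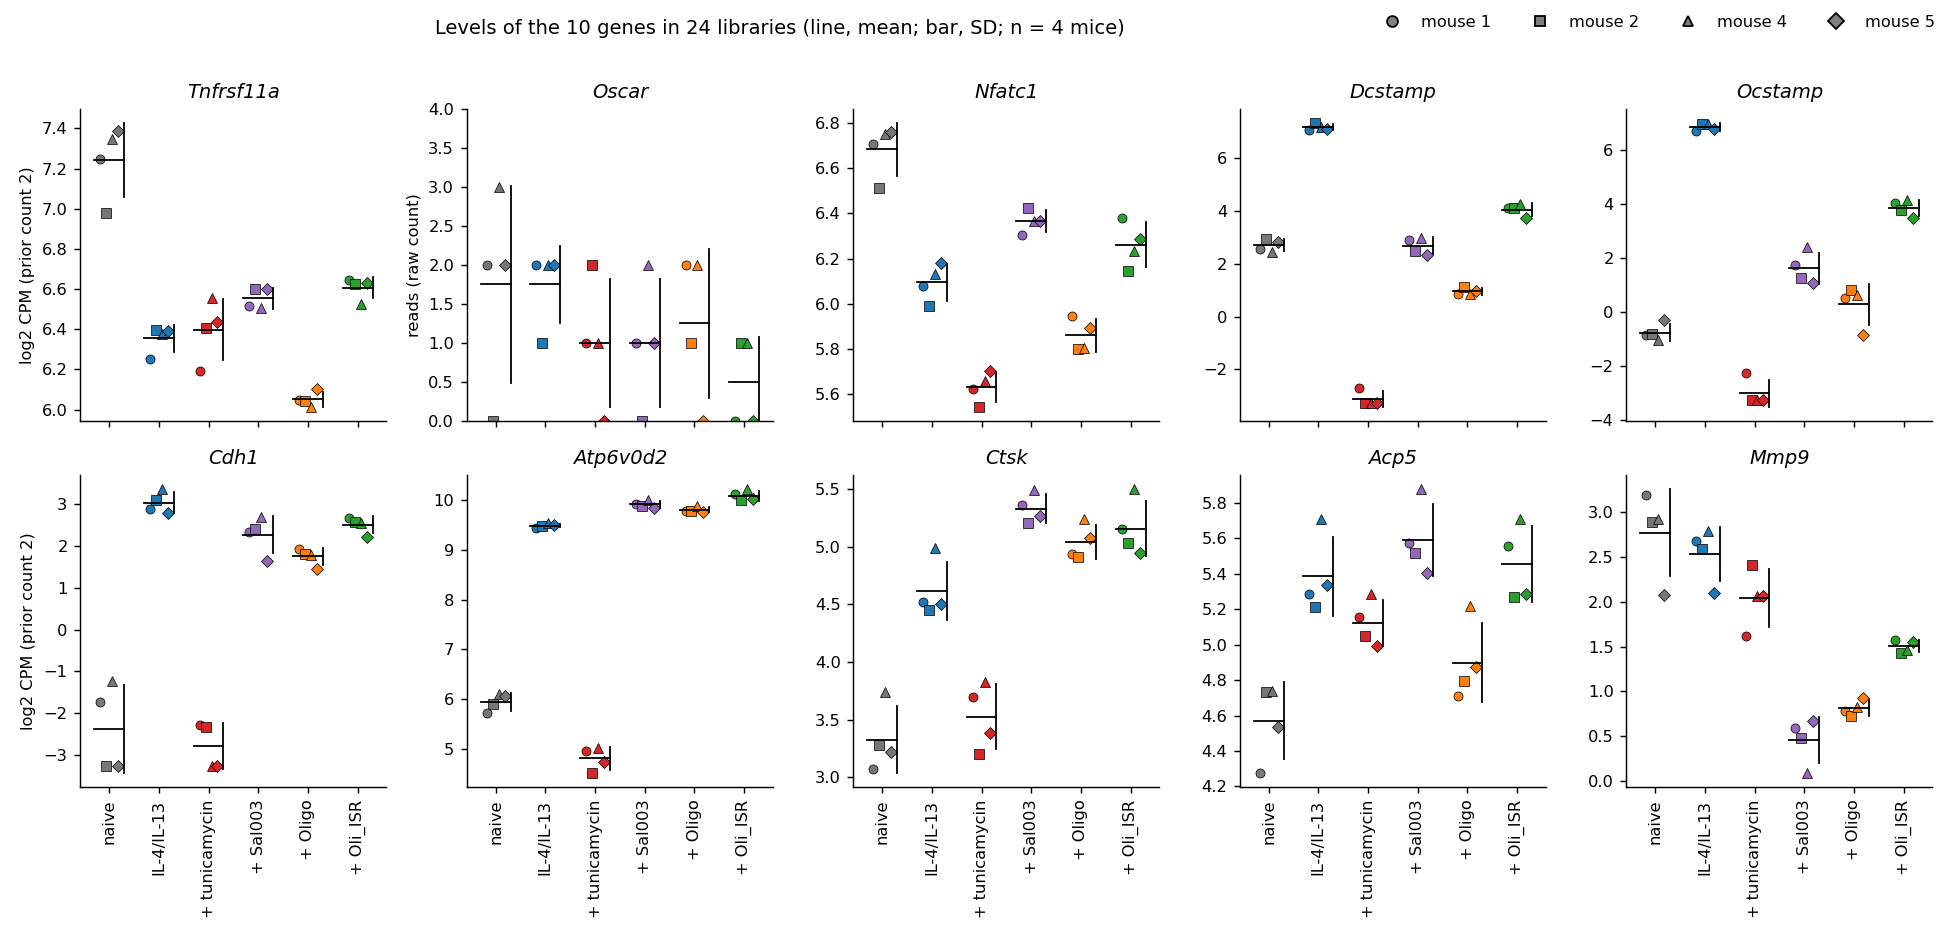
Levels of the 10 genes by condition, 1 point per library and a symbol per mouse, as log2 CPM with a prior count of 2 added (raw reads for *Oscar*). Horizontal lines are means and vertical lines SDs over 4 mice. *Dcstamp* and *Ocstamp* stand highest in the IL-4/IL-13 libraries and lowest with tunicamycin, *Atp6v0d2* is highest in Oli_ISR, and *Tnfrsf11a* and *Nfatc1* are highest in naive cells.

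*Dcstamp* encodes DC-STAMP, a membrane protein with several transmembrane segments that is required for the fusion of osteoclasts and of giant cells. Its level in mice 1, 2, 4 and 5 was 5.86, 7.68, 5.36 and 7.06 CPM in naive cells and 134, 161, 146 and 139 CPM with IL-4/IL-13. It rose with the cytokines in all 4 mice by a log2 fold change of 4.48 (SE 0.12, adjusted *P* = 3.6e-20 in edgeR), or 22.4-fold. With tunicamycin, 1 read was counted in mouse 1 and 0 in mice 2, 4 and 5. Against a floor of 3 counts per library, *Dcstamp* was at least 934-fold lower than in IL-4/IL-13 cells and at least 41.9-fold lower than in naive cells. With Sal003 the libraries had 7.47, 5.53, 7.87 and 4.94 CPM, which overlapped the naive range. In Oligo they had 1.70, 2.07, 1.73 and 1.85 CPM, below every naive library, and in Oli_ISR 17.1, 17.5, 19.2 and 13.2 CPM, above every naive library. Relative to the IL-4/IL-13 library of the same mouse, 4.49 ± 1.15% of the level was measured with Sal003, 1.27 ± 0.0618% in Oligo and 11.6 ± 1.72% in Oli_ISR. The 3 falls from the IL-4/IL-13 level were called, at log2 fold changes of -4.49 (SE 0.12), -6.29 (SE 0.14) and -3.12 (SE 0.11).

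*Ocstamp* encodes OC-STAMP, a related membrane protein that acts in fusion beside DC-STAMP. Naive libraries held 9, 8, 7 and 14 reads, a mean of 0.491 ± 0.141 CPM, and those with IL-4/IL-13 102, 124, 123 and 109 CPM. The rise was the largest among the 9 genes tested, a log2 fold change of 7.84 (SE 0.25, adjusted *P* = 6.3e-19 in edgeR) that held in all 4 mice. Tunicamycin libraries held 2, 0, 0 and 0 reads, at least 739-fold fewer per normalized library than in IL-4/IL-13 cells. The other levels were 3.17, 2.26, 5.10 and 2.01 CPM with Sal003, 1.33, 1.65, 1.41 and 0.450 CPM in Oligo, and 16.1, 13.3, 17.5 and 11.1 CPM in Oli_ISR. All 3 sets lay below the IL-4/IL-13 libraries, with log2 fold changes of -5.20 (SE 0.19), -6.55 (SE 0.21) and -2.99 (SE 0.15). *Ocstamp* was above its naive level with Sal003, by a log2 fold change of 2.64 (SE 0.38), and in Oli_ISR, by 4.84 (SE 0.29). Oligo overlapped the naive range through mouse 5, at 9 reads. As a share of the IL-4/IL-13 level of the same mouse, *Ocstamp* was at 2.73 ± 1.12% with Sal003, 1.05 ± 0.431% in Oligo and 12.7 ± 2.71% in Oli_ISR.

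*Cdh1* encodes E-cadherin, an adhesion protein of epithelia that alternatively activated macrophages also make. Naive libraries held 4, 0, 6 and 0 reads, and IL-4/IL-13 libraries 132, 170, 193 and 112 reads (7.35, 8.57, 10.2 and 6.80 CPM). The rise had a log2 fold change of 5.92 (SE 0.38, adjusted *P* = 1.1e-12 in edgeR), with the naive side of the ratio resting on those few reads. Summed over the 6 epithelial markers, no library exceeded 0.248 CPM. With tunicamycin *Cdh1* had 2, 2, 0 and 0 reads, at least 53.1-fold lower than with the cytokines alone. Relative to the IL-4/IL-13 library of the same mouse, *Cdh1* was at 59.0 ± 10.0% with Sal003, 40.7 ± 7.45% in Oligo and 69.7 ± 12.05% in Oli_ISR. Libraries had 4.98, 5.19, 6.40 and 3.04 CPM with Sal003, 3.74, 3.43, 3.35 and 2.65 CPM in Oligo, and 6.34, 5.90, 5.82 and 4.53 CPM in Oli_ISR. None of these overlapped the IL-4/IL-13 range, and the log2 fold changes were -0.75 (SE 0.22), -1.32 (SE 0.23) and -0.55 (SE 0.21), all under 2.5-fold. The value for Oligo lay at 2.496-fold, just short of a call, and passed the line with DESeq2 (-1.35), with upper-quartile normalization (-1.33), in a model of only the groups compared (-1.33) and without mouse 1 (-1.45). In every one of these 3 groups *Cdh1* stayed above naive cells, by log2 fold changes of 5.16 with Sal003, 4.60 in Oligo and 5.36 in Oli_ISR.

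The summed markers of dendritic cells were also lower in the inhibitor groups, where *Dcstamp*, *Ocstamp* and *Cdh1* were lower. The summed level of the 6 markers was 7.13 to 11.4 CPM in naive cells, 9.21 to 9.95 CPM with IL-4/IL-13, 1.59 to 2.29 CPM with tunicamycin, 2.75 to 3.96 CPM with Sal003, 1.93 to 3.00 CPM in Oligo and 2.22 to 4.57 CPM in Oli_ISR. With IL-4/IL-13, 2 of the 6 were at the floor, with *Xcr1* at 0 in every library, and *Zbtb46*, the highest, was at 4.62 ± 0.938 CPM. *Xcr1* had 2 to 4 reads per tunicamycin library. The naive and IL-4/IL-13 ranges of the sum overlapped, and those of the 3 genes did not. The summed neutrophil markers were lower too, at 0.103 to 0.286 CPM with tunicamycin against 24.1 to 44.4 CPM with IL-4/IL-13. Summed stromal or osteoblast markers were at 8.56 to 30.3 CPM with tunicamycin against 30.5 to 99.0 CPM with IL-4/IL-13. The part of these cell types in the falls was not tested.

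*Atp6v0d2* encodes the d2 subunit of the vacuolar proton pump (V-ATPase), which acidifies the resorption space and is needed for efficient fusion of osteoclast precursors. It was the most abundant of the 10 genes after IL-4/IL-13, at 1202 ± 18.7 TPM, against 224 ± 16.6 TPM for *Dcstamp* and 143 ± 11.6 TPM for *Ocstamp*. Naive libraries had 52.5, 60.0, 69.0 and 66.8 CPM and IL-4/IL-13 libraries 695, 715, 740 and 720.1 CPM, a log2 fold change of 3.53 (SE 0.09, adjusted *P* = 7.9e-21 in edgeR). With tunicamycin the libraries had 31.2, 22.8, 32.4 and 26.6 CPM, all below the naive range. The fall from the IL-4/IL-13 level had a log2 fold change of -4.67 (SE 0.09). With Sal003 (974, 942, 1028 and 913 CPM), in Oligo (882, 882, 943 and 871 CPM) and in Oli_ISR (1112, 1027, 1187 and 1033 CPM), every library lay above all IL-4/IL-13 libraries. These differences were under 2.5-fold, at log2 fold changes of 0.43 (SE 0.08, adjusted *P* = 6.4e-05), 0.32 (SE 0.08, adjusted *P* = 0.00094) and 0.60 (SE 0.08, adjusted *P* = 4.5e-07). Thus with the same 3 treatments *Dcstamp* and *Ocstamp* were at 1.05 to 12.7% of their IL-4/IL-13 level on average, while *Atp6v0d2* was at 125 ± 3.06% to 152 ± 9.64%.

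The d2 subunit has a widely expressed paralog, d1, encoded by *Atp6v0d1*. *Atp6v0d1* was not called in any comparison with the cytokines or inhibitors, with log2 fold changes of -0.18 for IL-4/IL-13 against naive and 0.84 with tunicamycin. By TPM, d2 made up 35.0 ± 4.14% of d subunit mRNA in naive cells and 87.6 ± 0.362% with IL-4/IL-13. The share was 13.4 ± 1.87% with tunicamycin, and between 85.4% and 89.4% in all 12 libraries of the other inhibitor groups. The tunicamycin libraries thus lay below the naive range of 30.9% to 38.7%.

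**Figure D2:**
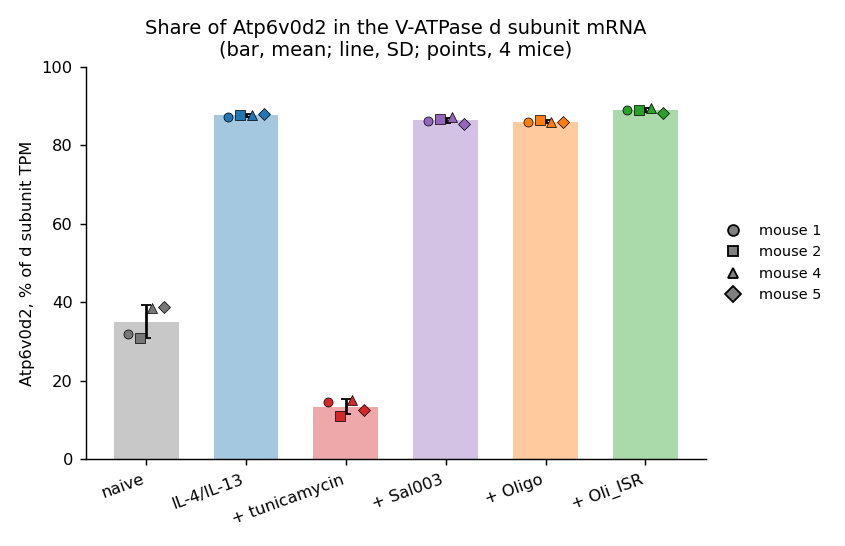
Share of *Atp6v0d2* in the summed TPM of the 2 V-ATPase d subunit genes, in percent, by condition. Bars are means, lines SDs and points the libraries of 4 mice. The mean is 87.6% with IL-4/IL-13, 13.4% with tunicamycin and 86.0% to 88.9% with the other inhibitors.

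*Ctsk* encodes cathepsin K, the protease that degrades bone collagen. The libraries of mice 1, 2, 4 and 5 had 8.30, 9.61, 13.2 and 9.19 CPM in naive cells and 22.9, 21.8, 31.7 and 22.5 CPM with IL-4/IL-13. The groups did not overlap, and the log2 fold change was 1.30 (SE 0.16, adjusted *P* = 8.6e-08 in edgeR). At 2.46-fold it missed the line for a call, which it passed without a filter on low counts (1.33) and without mouse 2 (1.34). With tunicamycin the level was 11.6 ± 2.27 CPM, which overlapped the naive range and was lower than with IL-4/IL-13 by a log2 fold change of -1.10 (SE 0.15). Sal003 libraries had 41.0, 36.8, 45.0 and 38.4 CPM, all above the IL-4/IL-13 libraries (log2 fold change 0.70, SE 0.14). Oligo (33.0 ± 3.48 CPM) and Oli_ISR (36.0 ± 6.36 CPM) were higher in each mouse than its own IL-4/IL-13 library, although the ranges overlapped through mouse 4. Against naive cells, *Ctsk* rose by log2 fold changes of 2.00 with Sal003, 1.71 in Oligo and 1.83 in Oli_ISR.

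*Acp5* encodes tartrate-resistant acid phosphatase, the classical stain of osteoclasts. It ran from 19.3 to 26.5 CPM in naive cells and from 37.0 to 52.3 CPM with IL-4/IL-13, a log2 fold change of 0.82 (SE 0.13, adjusted *P* = 8.6e-06 in edgeR). Its mean was 34.8 ± 3.19 CPM with tunicamycin, 48.5 ± 7.11 CPM with Sal003, 30.0 ± 4.92 CPM in Oligo and 44.1 ± 6.66 CPM in Oli_ISR, and neighbours in the order of the group means all overlapped. *Acp5* did not pass 2.5-fold in any comparison. With tunicamycin it was the only one of the 6 genes that were higher with IL-4/IL-13 than in naive cells that was not past the *P* threshold against the IL-4/IL-13 group (log2 fold change -0.28, SE 0.13, adjusted *P* = 0.057). Of all genes tested, 37.6% were lower and 38.7% higher there by that threshold alone. *Acp5* was lower with tunicamycin in all 4 mice.

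*Mmp9* encodes gelatinase B, a matrix protease of osteoclasts and also of neutrophils. Naive libraries had 9.03, 7.33, 7.51 and 4.12 CPM and IL-4/IL-13 libraries 6.29, 5.90, 6.79 and 4.19 CPM, which overlapped (log2 fold change -0.27, SE 0.18, adjusted *P* = 0.21). It fell with Sal003, to 1.40, 1.30, 0.962 and 1.49 CPM, and in Oligo, to 1.61, 1.55, 1.68 and 1.799 CPM, with log2 fold changes of -2.16 (SE 0.22) and -1.81 (SE 0.21). Oli_ISR stood between, at 2.74 ± 0.134 CPM and a log2 fold change of -1.08 (SE 0.20). Tunicamycin libraries kept 2.98, 5.24, 4.08 and 4.08 CPM, the highest mean of the 4 inhibitor groups, where *Dcstamp* had its lowest. The 8 neutrophil markers also moved between groups. Their summed level was 40.6 to 76.8 CPM in naive cells, 24.1 to 44.4 CPM with IL-4/IL-13, 5.09 to 8.49 CPM with Sal003, 2.73 to 4.71 CPM in Oligo and 18.8 to 24.7 CPM in Oli_ISR. With tunicamycin the sum was 0.103 to 0.286 CPM, with 7 of the 8 markers at the floor and 3 of them at 0. *Mmp9* was at 4.09 ± 0.922 CPM there. It was lower than with IL-4/IL-13 in all 4 mice, by a log2 fold change of -0.50 (SE 0.19), under 2.5-fold. The part of neutrophils in the *Mmp9* values was not tested in any group.

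The comparisons can be read together as counts. IL-4/IL-13 against naive cells called 4 of the 9 genes tested as higher (*Dcstamp*, *Ocstamp*, *Cdh1* and *Atp6v0d2*), where 5.39% of all genes tested were called higher and 6.08% lower. A further 4 were past the *P* threshold but under 2.5-fold, and by that threshold alone 30.1% of all genes tested were higher and 30.4% lower. Tunicamycin against IL-4/IL-13 called the same 4 genes as lower, against 14.0% lower and 8.56% higher among all genes tested. Sal003 called 3 as lower (*Dcstamp*, *Ocstamp* and *Mmp9*), against 5.04% lower and 2.68% higher. Oligo called the same 3 as lower, against 7.96% lower and 4.79% higher. Oli_ISR called *Dcstamp* and *Ocstamp* as lower, against 5.02% lower and 2.94% higher. All of these comparisons share the IL-4/IL-13 libraries. A high level there shifts IL-4/IL-13 against naive and the inhibitor comparisons in opposite directions. Since the genes were chosen with their levels known, nothing is read from their counts against these shares. The median log2 fold change of the 9 genes was 1.30 for IL-4/IL-13 against naive, -1.10 with tunicamycin, 0.20 with Sal003, -0.49 in Oligo and 0.06 in Oli_ISR, beside medians of -0.02 to 0.01 over all genes tested.

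**Figure D3:**
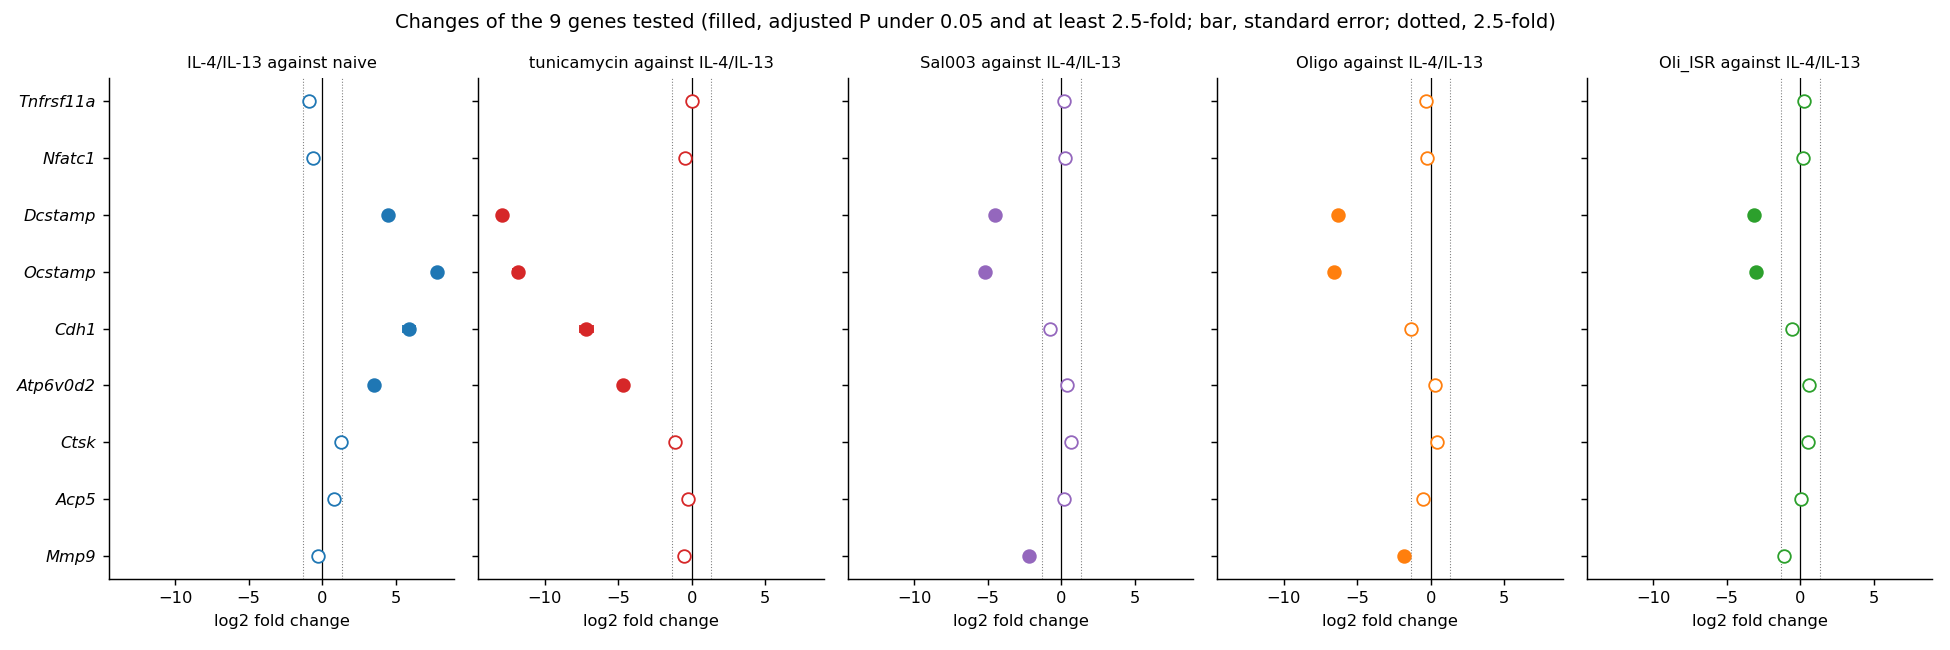
Log2 fold changes of the 9 genes tested in 5 comparisons, with SEs, most of which are smaller than the symbols. Filled points passed an adjusted *P* value of 0.05 and 2.5-fold, marked by dotted lines. The 4 genes called with IL-4/IL-13 are called in the opposite direction with tunicamycin, and *Atp6v0d2* and *Cdh1* are not called with the other inhibitors. All 5 comparisons share the IL-4/IL-13 libraries.

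The 2 oligomycin groups differed in 8 of the 9 genes at an adjusted *P* value under 0.05, all lower in Oligo than in Oli_ISR. By that threshold alone, 21.3% of all genes tested were lower and 19.9% higher in Oligo. *Dcstamp* and *Ocstamp* were called, at log2 fold changes of -3.17 (SE 0.16, adjusted *P* = 1.1e-13 in edgeR) and -3.56 (SE 0.24). Their ranges were far apart, with 1.70 to 2.07 CPM against 13.2 to 19.2 CPM for *Dcstamp*. The other 6 were between -0.77 for *Cdh1* and -0.28 for *Atp6v0d2*, lower in all 4 mice. *Ctsk* was the exception, at -0.12 (SE 0.14, adjusted *P* = 0.51) and lower in 3 of 4 mice. Among all genes tested, 1.48% were called, with 2.5-fold as well, as lower and 1.14% as higher in Oligo. Which of the 2 groups had ISRIB cannot be told from the labels.

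Set against naive cells, the inhibitor groups fell into different patterns. With tunicamycin, *Dcstamp* and *Ocstamp* were called lower, where 15.1% of all genes tested were called lower and 7.50% higher. *Ocstamp* was at least 3.17-fold lower there. *Atp6v0d2* (log2 fold change -1.14, SE 0.09) and *Nfatc1* (-1.05, SE 0.06) were also below naive cells in all 4 mice, under 2.5-fold. With Sal003, 4 genes were called higher (*Ocstamp*, *Cdh1*, *Atp6v0d2* and *Ctsk*) and *Mmp9* lower, against 3.21% and 7.49%, and *Dcstamp* stood at the naive level (log2 fold change -0.01, SE 0.15). Oligo called *Cdh1*, *Atp6v0d2* and *Ctsk* as higher and *Dcstamp* and *Mmp9* as lower, against 4.99% and 9.53%. Here *Dcstamp* was below naive cells by a log2 fold change of -1.81 (SE 0.18). Oli_ISR called 5 as higher, *Dcstamp* (1.36, SE 0.13) among them, and *Mmp9* (-1.35, SE 0.19) as lower, against 3.58% and 7.37%. Both of these named changes lay near 2.5-fold. The call of *Mmp9* was lost with the mouse as a replicate block (-1.32), and that of *Dcstamp* with upper-quartile normalization (1.29).

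By TPM, the order of the genes changed with the condition. In naive cells *Atp6v0d2* (110.2 TPM) and *Tnfrsf11a* (97.9 TPM) led, followed by *Nfatc1* (65.4 TPM), *Acp5* (26.2 TPM), *Ctsk* (16.6 TPM), *Dcstamp* (10.6 TPM) and *Mmp9* (9.14 TPM), with *Ocstamp* at 0.651 TPM. With IL-4/IL-13 the 3 leading genes were *Atp6v0d2*, *Dcstamp* and *Ocstamp*, and *Tnfrsf11a* followed at 49.4 TPM. With tunicamycin *Tnfrsf11a* (57.7 TPM) and *Atp6v0d2* (53.5 TPM) were close and overlapped in range, and *Acp5* (40.9 TPM) and *Nfatc1* (33.6 TPM) came next.

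Over the 24 libraries, log2 CPM of *Dcstamp* and *Ocstamp* had a Pearson correlation of 0.92. *Cdh1* ran closest to *Atp6v0d2* (0.95), and *Atp6v0d2* to *Cdh1* and *Ctsk* (0.93). *Dcstamp* and *Atp6v0d2* had 0.64, and *Mmp9* and *Ctsk* -0.73. These values describe libraries that share mice, treatments and depth, and carry no test. In the plot of each gene against *Dcstamp*, the Sal003, Oligo and Oli_ISR libraries lie to the left of the IL-4/IL-13 libraries but no lower for *Atp6v0d2*.

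**Figure D4:**
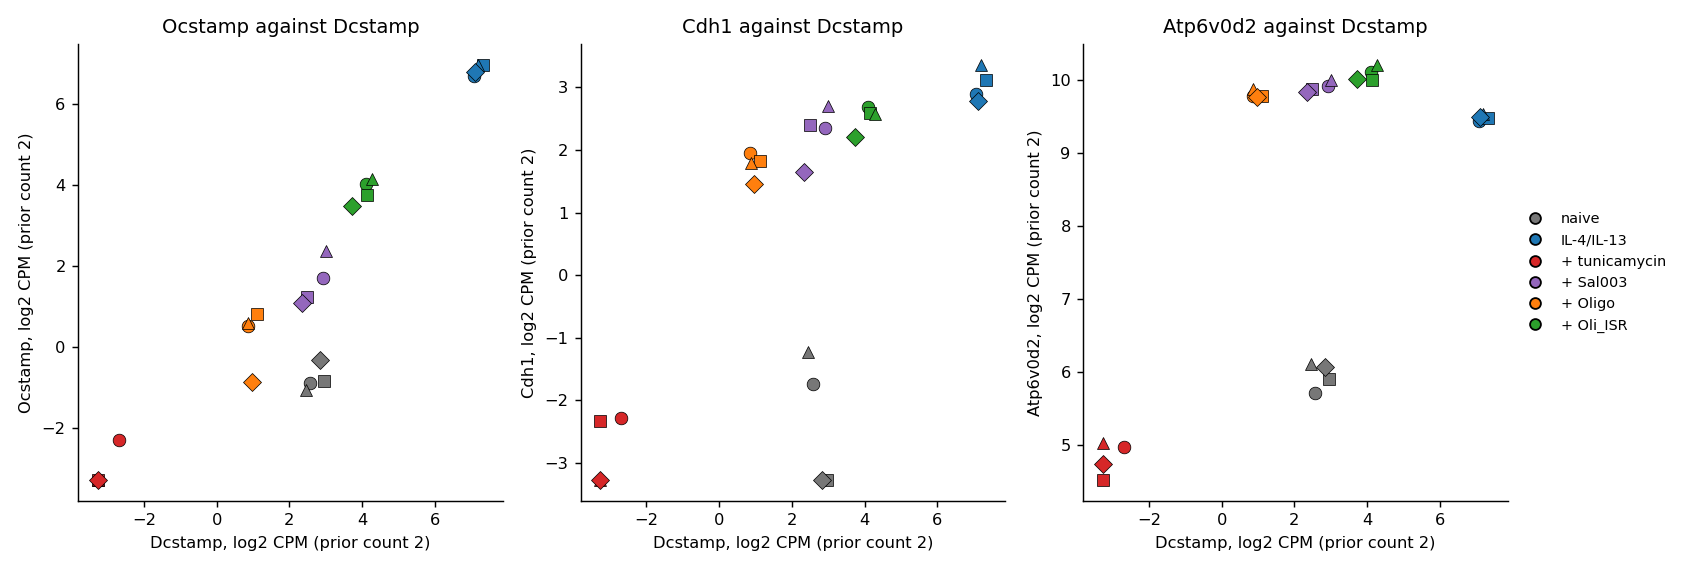
*Ocstamp*, *Cdh1* and *Atp6v0d2* against *Dcstamp*, all as log2 CPM with a prior count of 2 added, 1 point per library, with a color per condition and a symbol per mouse as in the plot of levels by condition. *Ocstamp* runs with *Dcstamp* (Pearson correlation 0.92), whereas *Atp6v0d2* stays high in the 12 libraries with Sal003, Oligo or Oli_ISR.

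The mice also differed from each other in a regular way. Mouse 4 had the highest *Atp6v0d2*, the highest *Ctsk* and the highest *Acp5* of the 4 mice in each of the 6 groups. For *Ctsk* this came to 13.2 against 8.30 to 9.61 CPM in naive cells, and to 45.0 against 36.8 to 41.0 CPM with Sal003. Mouse 2 had the lowest *Nfatc1* in 5 of 6 groups. The summed level of the 8 markers of stromal cells or osteoblasts also differed between mice. It was highest in mouse 1 and lowest in mouse 5 in every group, at 99.0, 70.5, 64.3 and 30.5 CPM in mice 1, 2, 4 and 5 with IL-4/IL-13. Its part in the values of these genes was not tested.

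The gene most like each of the 9 in its log2 CPM over the 24 libraries, and the next one, were looked up among 10589 candidates with a mean of at least 50 counts. *Dcstamp* was followed most closely by *Mras* (0.988) and *Ltbp3* (0.986), and *Ocstamp* by *Il4i1* (0.988) and *Hr* (0.983). *Cdh1* ran with *Igf1* (0.977) and *Arg1* (0.976), and *Atp6v0d2* with *Niban2* (0.996) and *Slc7a2* (0.995). For *Ctsk* these were *Anpep* (0.978) and *Knop1* (0.975), and for *Acp5* *Bcap31* (0.893) and *Sucla2* (0.886). *Mmp9* was followed by *Osgin1* (0.933) and *Rap1a* (0.920), *Tnfrsf11a* by *Fgd4* (0.956) and *Ptk2b* (0.954), and *Nfatc1* by *Dipk2a* (0.974) and *Rab11fip5* (0.973).

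Of 28 other genes of RANK signalling and osteoclast transcription, 26 were tested. *Tnfsf11*, the gene of RANKL, had 0 or 1 read in every library. With IL-4/IL-13, 4 rose and 1 fell (median log2 fold change 0.06), where 5.39% of all genes tested were called higher and 6.08% lower. The rises were *Ppargc1b* (3.53), a coactivator of mitochondrial biogenesis, *Myc* (2.93), *Fosl2* (1.92), an AP-1 subunit, and *Tnfrsf11b* (1.78), the decoy receptor of RANKL. *Tnfrsf11b* rested on 3 to 50 reads per IL-4/IL-13 library. *Nfatc2* fell (-1.61). With tunicamycin 10 fell and 2 rose (median -0.57), where 14.0% of all genes tested were called lower and 8.56% higher. The falls were led by *Ppargc1b* (-4.65), *Fos* (-3.65) and *Tnfrsf11b* (-2.90), the last with 3 to 7 reads per tunicamycin library. Summed stromal or osteoblast markers also differed between mice. They were at 8.56 to 30.3 CPM with tunicamycin against 30.5 to 99.0 CPM with IL-4/IL-13. Their part in the *Tnfrsf11b* values was not tested. The rises were *Jdp2* (2.67), a repressor of AP-1, and *Csf1* (2.08), the gene of M-CSF. Mean *Csf1r*, the gene of the M-CSF receptor, was lower, at 821 CPM with tunicamycin against 3732 CPM with IL-4/IL-13. *Prdm1*, the gene of the repressor Blimp1, also fell with tunicamycin (-1.69), whereas *Traf6*, the adaptor of RANK, was not called in any of these comparisons (0.04 with IL-4/IL-13 and -0.28 with tunicamycin). *Ppargc1b* fell with Sal003 (-1.37), in Oligo (-2.83) and in Oli_ISR (-1.67) as well, as part of 3, 2 and 3 genes called lower there, against 5.04%, 7.96% and 5.02% of all genes tested. *Csf1* rose in Oligo (2.31), where mean *Csf1r* was 2162 CPM.

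The repressors of osteoclast differentiation reported here ran from -1.01 (*Irf8*) to 1.09 (*Id2*) with IL-4/IL-13, all under 2.5-fold, with *Bcl6* at -0.56. With tunicamycin *Id3* (-5.00) and *Id1* (-3.67) fell and *Rbpj* rose (1.49). *Id1* rose with Sal003 (1.36) and in Oligo (1.32), where *Id2* also rose (1.35). Among 12 tested ITAM receptors, adaptors and their kinases, which act beside RANK, *Fcgr1* (-3.75) and *Sirpb1a* (-3.51) fell with IL-4/IL-13 and rose again with tunicamycin (2.64 and 2.05), Sal003 (3.22 and 1.60) and in Oli_ISR (3.11 and 1.62). In Oligo *Fcgr1* rose (2.86), and *Sirpb1a* was at 0.45. *Trem2* fell with tunicamycin (-3.05), as did *Fcgr3* (-2.18). The adaptors *Tyrobp* (-0.78) and *Fcer1g* (0.86) were not called with tunicamycin. *Trem2* was at 0.04 with Sal003. Of 21 tested genes of macrophage adhesion and fusion, *Itgb3* (4.52), the β chain of the vitronectin receptor of osteoclasts, *Cd36* (1.77) and *Itgb2* (1.37) rose with IL-4/IL-13 and *Sh3pxd2a* fell (-2.55). *Itgb3* fell with tunicamycin (-4.00), Sal003 (-1.57) and in Oligo (-1.61), and its value in Oli_ISR was -1.32, just under the line. *Adam8* (-3.91) and *Itgb2* (-3.80) fell with tunicamycin too, among 5 genes called lower and 3 higher, against 14.0% and 8.56% of all genes tested. *Cd200* rose with Sal003 (1.70), in Oligo (2.31) and in Oli_ISR (1.95). These values rest on 5 to 12 *Cd200* reads per IL-4/IL-13 library, a mean of 0.487 CPM, against 0.851 CPM in naive cells.

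The 25 other genes of the V-ATPase and of acid secretion were all tested. With IL-4/IL-13 1 rose, *Atp6v0a1* (1.59), and 1 fell, *Slc9b2* (-1.47), with a median of 0.07. Of all genes tested, 5.39% were called higher and 6.08% lower there. With tunicamycin *Car2* (-3.14), the carbonic anhydrase that supplies protons, and *Atp6v0a1* (-1.69) fell, and the median was 0.23. *Tcirg1*, the a3 subunit of the osteoclast pump, was not called (0.37 with IL-4/IL-13 and -0.19 with tunicamycin). The medians with Sal003, in Oligo and in Oli_ISR were 0.36, 0.13 and 0.28, and *Slc9b2* rose in all 3 (1.59, 1.82 and 2.45). The 11 other cathepsins tested ran from -1.19 (*Ctsc*) to 0.96 (*Ctsz*) with IL-4/IL-13, all under 2.5-fold (median -0.23), and 6 fell with tunicamycin (median -1.36), where 14.0% of all genes tested were called lower. These were led by *Ctss* (-2.32), *Ctsh* (-2.11) and *Ctsb* (-1.94). *Ctsd* rose with Sal003 (1.44) and *Ctsl* in Oligo (1.49), where *Ctsf* fell (-1.46).

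Of the 10 other matrix metalloproteinases and TIMPs, *Mmp12*, the macrophage elastase, rose with IL-4/IL-13 (4.15) and *Mmp14* fell (-3.19). With tunicamycin 8 fell (median -1.95), against 14.0% of all genes tested. The falls were led by *Mmp12* (-7.52), *Timp2* (-3.73) and *Timp1* (-2.97), while *Mmp9* itself was at -0.50. *Mmp12* fell with Sal003 (-2.38), in Oligo (-2.59) and in Oli_ISR (-1.61) too, as did *Mmp8* (-1.39, -2.50 and -1.52). The summed neutrophil markers were also lower with Sal003 (5.09 to 8.49 CPM) and in Oligo (2.73 to 4.71 CPM) than with IL-4/IL-13 (24.1 to 44.4 CPM). In Oli_ISR they were at 18.8 to 24.7 CPM. The part of neutrophils in the *Mmp8* values was not tested. *Mmp13* rose in Oligo (2.19). Of the cadherins, catenins and repressors of *Cdh1*, 9 were tested. Among these, 1 fell with IL-4/IL-13 (median -0.24), 2 with tunicamycin (median -0.54) and 1 in Oligo (median -0.24). Of all genes tested, 6.08%, 14.0% and 7.96% were called lower in these comparisons. Of the catenins, *Ctnnb1* and *Ctnna1* were not called. They were at 0.37 and 0.08 for IL-4/IL-13 against naive and at -0.94 and -0.54 with tunicamycin. *Snai1*, a repressor of *Cdh1*, fell with IL-4/IL-13 (-1.45) and with tunicamycin (-1.74), and *Jup* fell with tunicamycin (-3.14) and in Oligo (-2.01).

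**Figure D5:**
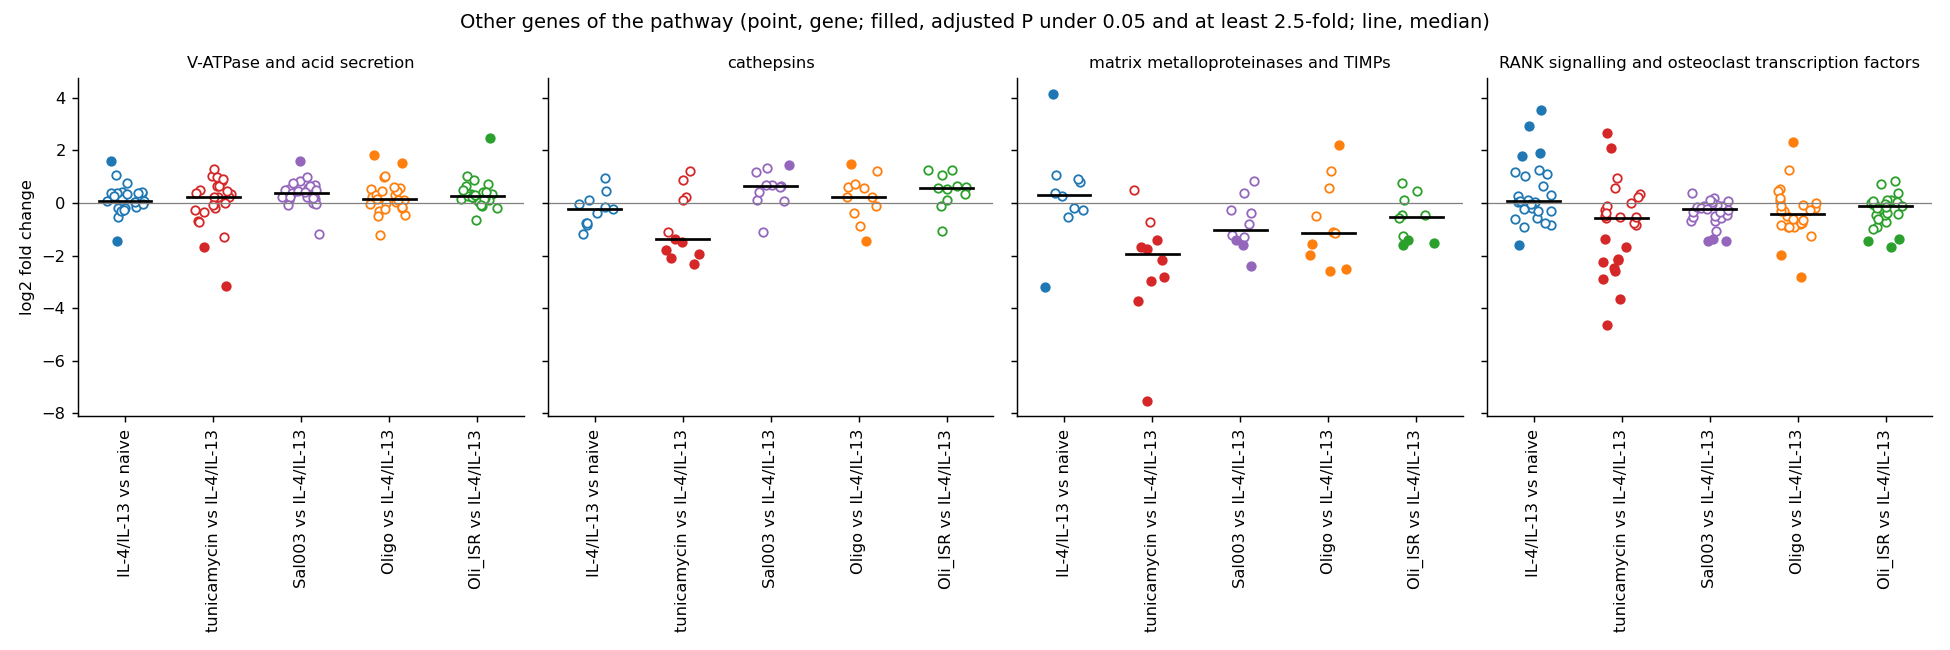
Log2 fold changes of other genes of the pathway in 4 lists and 5 comparisons, 1 point per gene, filled where called, with a line at the median of the list. With tunicamycin the medians were -1.36 for cathepsins and -1.95 for matrix metalloproteinases and TIMPs, and 0.23 for V-ATPase genes.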

How the data were processed

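RNA-seq libraries of BMDM from 4 mice in 6 conditions were analysed (24 libraries). The authors trimmed reads with Cutadapt (version 1.8), aligned them to GRCm39 with STAR (version 2.7) and summarized them by gene with htseq-count (HTSeq 0.9.1). The analysis started from the deposited raw counts, which are not normalized, and the authors' strand setting is not given in the sources used here. A further 5 totals that belong to no gene held 12.7 to 15.2% of all reads and did not enter library sizes or tests. The deposited RSEM TPM table was not used, because its header names do not match its columns, and TPM was computed from the counts and exon lengths of the GENCODE annotation of GRCm39 (56323 of 56884 identifiers found).

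edgeR 4.0.16 in R 4.3.3 was used with TMM normalization, filterByExpr by group (13679 genes) and quasi-likelihood tests in 1 model over all 24 libraries, with Benjamini-Hochberg adjustment over all genes tested and thresholds of 0.05 and 2.5-fold, those the study states. The step was also run on simulated data, and the outcome is not given here. CPM used TMM library sizes, and log2 CPM a prior count of 2. Groups whose libraries all had 3 counts or fewer were taken to be at the floor, and folds against them are lower bounds. Replicates were not copies of each other (chi-square per gene of 2.19 to 35.9 within groups).

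The genes and the 8 lists around them (133 genes) were chosen with earlier results of these data known. Named were all 10 genes, the genes called with the largest change in each list, partners and paralogs of the genes whatever they did, and the 2 genes most correlated with each. Not every gene this rule allows is printed. By the labels, equal numbers mark the same mouse. After group means were subtracted, libraries of the same mouse had a median correlation of 0.24 with 56 of 60 pairs over 0.1, and those of different mice -0.05, with 7 of 180 pairs over it. The study states no block, so the mouse as a replicate block was an alternative, beside DESeq2 1.42.0, upper-quartile normalization, other filters, a 2-fold threshold, a model of only the groups compared and leaving out each mouse. A gene of the pathway lists is not reported here.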

Additional observations from a re-analysis of the deposited data

Results flagged for a closer look

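In 3 of 51 groups of 4 libraries, 1 library stood apart from the other 3 by Dixon's criterion, which chance alone meets in about 1 in 20 groups. *Tnfrsf11a* was at 76.2 CPM in mouse 1 with IL-4/IL-13, against 83.0 to 84.1 CPM in the other mice. *Atp6v0d2* was at 943 CPM in mouse 4 in Oligo, against 871 to 882 CPM. *Ctsk* was at 31.7 CPM in mouse 4 with IL-4/IL-13, against 21.8 to 22.9 CPM. The other libraries of mouse 4 also had the highest *Atp6v0d2* and *Ctsk* of their group.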

How the results depend on the processing

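The number of genes called among the 10 stayed within 1.5 times its value under DESeq2, without a filter on low counts, with upper-quartile normalization, with the mouse as a replicate block and with each mouse left out. With at least 10 counts in every library, 6 of the 10 were tested, because that filter by its construction removes *Dcstamp*, *Ocstamp* and *Cdh1*. It left 1 gene called for IL-4/IL-13 against naive, 1 each for tunicamycin, Sal003 and Oligo against IL-4/IL-13, 0 for Oli_ISR against IL-4/IL-13, for Oligo against Oli_ISR and for tunicamycin against naive, and 3 each for Sal003, Oligo and Oli_ISR against naive. For tunicamycin against naive, 4 were called at a 2-fold threshold and 1 in a model of only the groups compared, in which 7 were tested. The replicate block changed only the call of *Mmp9* in Oli_ISR against naive (-1.32), which was also lost without a filter (-1.32) and in 3 of the 4 fits that left out a mouse (-1.22 to -1.30). *Dcstamp* in that comparison was under the line without mouse 1 (1.29) or mouse 4 (1.21), and *Ocstamp* in Oligo against naive passed it without mouse 5 (1.78).

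Only values near 0 reversed. These were *Tnfrsf11a* with tunicamycin against IL-4/IL-13 under upper-quartile normalization (-0.00537), *Acp5* in Oli_ISR against IL-4/IL-13 (-0.020 to 0.097 over the fits that left out a mouse), and *Dcstamp* with Sal003 against naive, at 0.029 without a filter and at -0.19 to 0.16 over the fits that left out a mouse. For these reversals the cause was not tested. Over all genes, the strict filter left 812, 1738, 473, 911, 489, 115, 1734, 608, 1008 and 657 genes called in the 10 comparisons, against 1569, 3088, 1055, 1744, 1089, 358, 3087, 1464, 1987 and 1498. A 2-fold threshold gave 680 for Oligo against Oli_ISR, and 2227, 3007 and 2290 for Sal003, Oligo and Oli_ISR against naive. Counts near the floor limit *Oscar*, *Ocstamp* and *Cdh1* in naive cells, and *Dcstamp*, *Ocstamp* and *Cdh1* with tunicamycin.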
